A study of Mus musculus with 7 samples.

Results

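Expression of 9 genes of epithelial adhesion and identity was followed through the development of the mouse lung epithelium. They are Epcam, Cdh1, Ctnna1, Ctnnb1, Jup, Ctnnd1, Esrp1, Esrp2 and Grhl2, chosen by gene symbol from the 21121 genes listed in each library. All 9 were present, and all 9 were among the 12964 genes with enough reads to be tested. The cells came from lungs of C57BL/6 mice. They were sorted as living cells that carry Epcam protein and lack the lineage proteins CD31, CD45, Ter119 and CD146. The labels name no genotype or treatment, and developmental stage is the difference they give between the groups. At a stage with 1 library, stage and library cannot be told apart. There was 1 library at embryonic day 13.5 (E13.5), 1 at E15.5, 2 at E18.5, 1 at postnatal day 14 (P14) and 2 at P56. The labels do not say how many animals went into a library, or whether the libraries of a stage came from separate animals, so p-values measure only the spread between these samples.

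These genes build and maintain the junctions that hold an epithelial sheet together. E-cadherin, the product of Cdh1, joins neighbouring cells through calcium-dependent contacts. Its cytoplasmic tail is bound by beta-catenin (Ctnnb1) or by the related plakoglobin (Jup), which are coupled to actin through alpha-catenin (Ctnna1), while p120-catenin (Ctnnd1) keeps the cadherin at the surface. Epcam encodes an adhesion and signalling protein of epithelial membranes, Esrp1 and Esrp2 encode RNA-binding proteins that impose epithelial splicing patterns, and Grhl2 encodes a grainyhead family transcription factor of epithelial genes. Beta-catenin is also the nuclear effector of Wnt signalling, which acts in lung specification and in alveolar type 2 cells.

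RNA was read by 3' SAGE sequencing, in which a short tag near the 3' end stands for 1 amplified transcript. Levels of different genes are therefore not set against each other, and the tags carry no information on splicing. Values are scaled tag counts, in units of which 1 read is worth 0.236 to 0.385 depending on the library, at depths of 2559927 to 3895740 reads. Each member had at least 147 reads in every library, and intervals on single libraries cover counting error only. Marker lists of other cell types were read in each library. Immune markers (6 in the files) took 2.79e-05% to 0.00251% of the reads, with 2 to 5 of them at 0 reads per library. Their sum was highest at P14. Endothelial markers (7) took 0.000236% to 0.00215%, with 1 to 5 at 0 reads, and mesenchymal markers (9) 0.00467% to 0.0218%, with 1 to 4 at 0 reads. Both sums were highest at E15.5, and the mesenchymal sum was lowest at E13.5. Mesothelial markers (4) took 0.000103% to 0.00229%, with 0 to 3 at 0 reads. Erythroid markers (5) took 0% to 0.00445%, with all 5 at 0 reads in E18.5 replicate 1 and at most 1 at 0 reads elsewhere. Marker sums of epithelial cell types differed between stages. General lung epithelium markers (Nkx2-1, Krt8, Krt18 and the members Epcam and Cdh1) took 0.100% of the reads of E13.5 and 0.199% at E15.5. They took 0.208% and 0.25% in the E18.5 libraries, 0.170% in that of P14, then 0.158% and 0.145% in those of P56. Nkx2-1, Krt8 and Krt18 were each highest in the E18.5 libraries, as were the members Cdh1 and Esrp2. Alveolar type 1 markers (8) summed to 0.00467% of the reads of E13.5, 0.0702% at E15.5, and then 0.662% and 0.719% at E18.5. After birth they summed to 0.614% at P14, with 0.316% and 0.355% at P56. For alveolar type 2 markers (8) the sums were 0.00968%, 0.231%, 0.970% and 0.889%, 3.36%, and 4.54% and 5.01% in the same stage order. For airway markers (5), in that order too, they were 0.000231%, 0.00848%, 0.0149% and 0.0151%, 0.0167%, and 0.0558% and 0.0479%. The part of this shift in the results on the 9 genes was not tested. In such bulk samples a fall in the cells that express a gene and a fall in RNA per cell cannot be told apart.

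The libraries of E18.5 differed from each other more than counting error for all 9 members, since no 95% counting interval of the ratio between the libraries held 1. The same was so for 29.9% of all genes tested, and for 59.2% of the 1486 genes with at least 147 reads in every library. Replicate 2 was above replicate 1 for Grhl2 (ratio 1.68), Esrp2 (1.51), Jup (1.49), Ctnnd1 (1.24), Cdh1 (1.12) and Ctnnb1 (1.09), and below it for Ctnna1 (0.830), Epcam (0.655) and Esrp1 (0.562). Summed erythroid markers came to 125 reads in replicate 2 of E18.5, against 0 reads in replicate 1. Whether that bears on the gap was not tested. At P56, 5 of the 9 intervals left out 1, as did 26.9% of all genes tested and 58.3% of those 1486, and the widest gap was in Epcam (ratio 0.557 of replicate 2 to replicate 1).

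**Figure D1:**
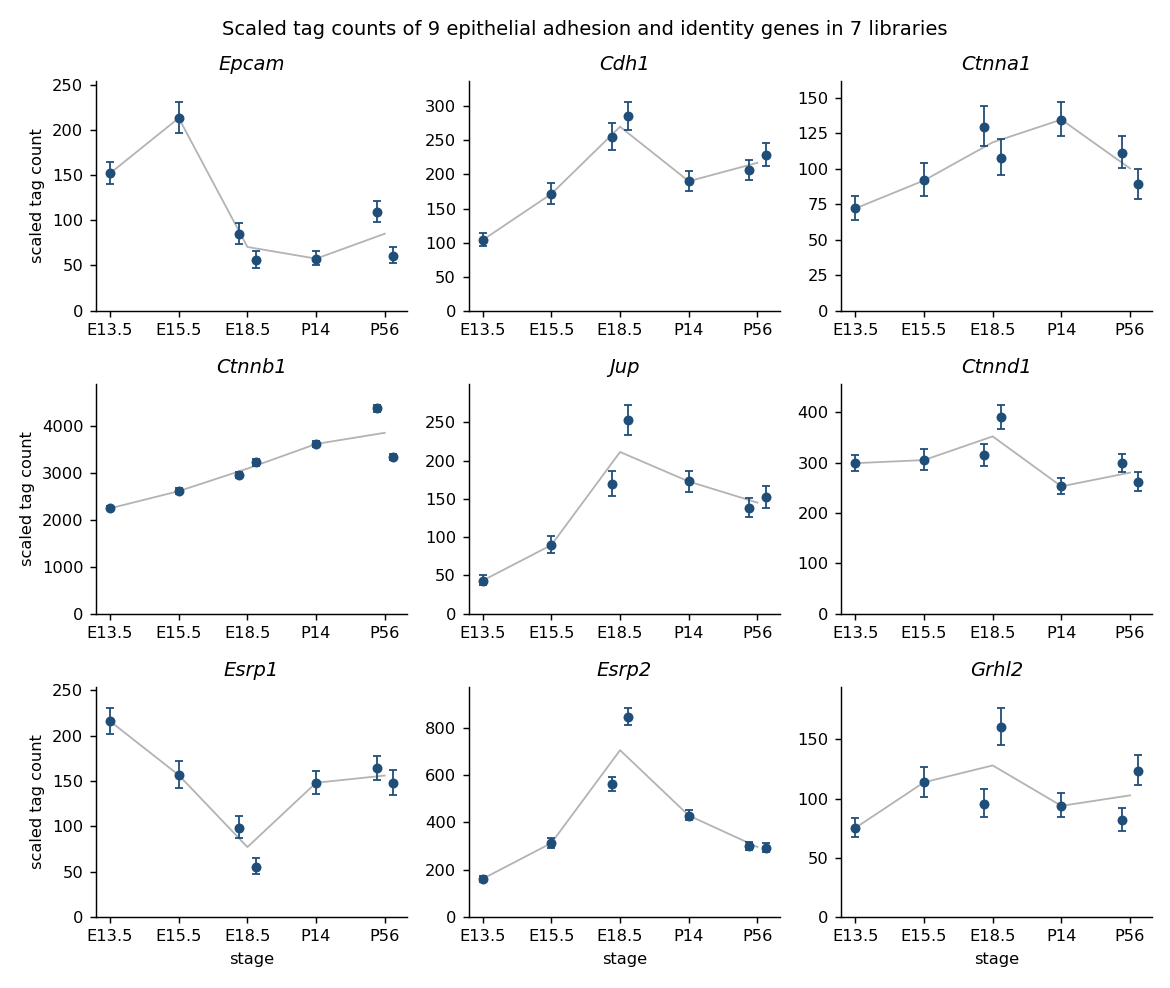
Scaled tag counts (y axis, linear from 0) of each gene by stage (x axis). Points are single libraries with 95% counting intervals and grey lines join the stage means. Stage means of Cdh1, Jup and Esrp2 are highest at E18.5, where that of Esrp1 is lowest. For Jup, E18.5 replicate 1 (170) lies below P14 (173), and Epcam is higher at E13.5 and E15.5 than in any later library.

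The E18.5 libraries were set against those of E13.5 and E15.5 to trace the junction genes over the period in which alveolar cell types appear. Both early stages have 1 library, assumed in the fit to vary like the replicated stages. Cdh1, Jup and Esrp2 rose, by 1.96-fold, 3.18-fold and 2.98-fold in the ratio of means. Epcam and Esrp1 fell, 2.59-fold and 2.42-fold. Ctnnb1, Ctnna1, Ctnnd1 and Grhl2 did not pass the test. Thus 5 of 9 members were called, 3 higher and 2 lower, where 29.1% of all genes tested were called, 15.8% higher and 13.4% lower. The members and lists were chosen with earlier results of these data known, so a gap from such shares, here and below, is not a test. Members also had at least 147 reads in every library, as 1486 of the genes tested had, and calls among those genes were not counted. Calls here and below are from limma on log2(value + 1), fitted to the 7 libraries together, at a Benjamini-Hochberg adjusted p under 0.05 over 12964 genes.

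Cdh1 (chromosome 8, 106603351 to 106670246, plus strand, GRCm38, as are all gene positions given here, from GENCODE vM21) stood at 104 units at E13.5 and 172 at E15.5, then 255 and 286 at E18.5, with 190 at P14 and then 206 and 228 at P56. E18.5 held the 2 highest libraries and E13.5 the lowest, with no overlap between E18.5 and the early stages. The mean was 270 ± 21.7 at E18.5 (SD, n = 2) and 138 over E13.5 and E15.5, a log2 change of 1.01 (SE 0.187, limma adjusted p = 0.00723).

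Jup (chromosome 11, 100368958 to 100397763, minus strand) encodes plakoglobin, the catenin that serves both adherens junctions and desmosomes. It stood at 43.2 at E13.5 and 89.7 at E15.5, then 170 and 253 at E18.5, with 173 at P14 and then 138 and 152 at P56. Both early libraries lay below every later library. The mean was 211 ± 58.7 at E18.5 (SD, n = 2) against 66.5 over the early stages (log2 change 1.72, SE 0.241, limma adjusted p = 0.00230).

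Esrp2 (chromosome 8, 106130319 to 106136974, minus strand) stood at 161 at E13.5 and 312 at E15.5, then 562 and 847 at E18.5, with 428 at P14 and then 298 and 292 at P56. Its E18.5 libraries were the highest of the 7. They averaged 705 ± 201 (SD, n = 2) against 236 over the early stages (log2 change 1.62, SE 0.229, limma adjusted p = 0.00238). The 3' end of Esrp2 lies within Nfatc3 on the opposite strand, whose own count was at most 62 reads per library against 680 to 2248 for Esrp2. No source used here states whether tags were counted by strand, so reads of such overlapping genes cannot be told apart.

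Esrp1 (chromosome 4, 11331933 to 11386783, minus strand) moved against its paralog. It stood at 216 at E13.5 and 156 at E15.5, then 98.6 and 55.4 at E18.5, with 148 at P14 and then 164 and 148 at P56. The E18.5 libraries were the lowest of the 7, with a mean of 77.0 ± 30.5 (SD, n = 2) against 186 over the early stages (log2 change -1.30, SE 0.286, limma adjusted p = 0.0142). The 3' end of Esrp1 lies within the non-coding gene Gm26663 on the opposite strand.

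Epcam (chromosome 17, 87635979 to 87651129, plus strand), whose protein was also the sorting marker, stood at 152 at E13.5 and 213 at E15.5, then 85.1 and 55.8 at E18.5, with 57.5 at P14 and then 109 and 60.9 at P56. Every library from E18.5 on was below the early ones. The mean was 70.4 ± 20.7 at E18.5 (SD, n = 2) against 183 over the early stages (log2 change -1.37, SE 0.332, limma adjusted p = 0.0203). The purity of the sort for Epcam protein was not measured here.

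The other catenins and Grhl2 differed less. Ctnnb1 (chromosome 9, 120929216 to 120960507, plus strand) stood at 2244, 2611, 2958 and 3223, 3615, and 4376 and 3331 from E13.5 to P56, so that its stage means lay in the order of age. The E18.5 libraries were above the early ones, yet the change was 0.35 on the log2 scale with a 95% interval of -0.09 to 0.79 (limma adjusted p = 0.197). Its 3' end lies within Ulk4 on the opposite strand, which had at most 78 reads per library.

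Ctnna1 (chromosome 18, 35118859 to 35254779, plus strand) stood at 72.1 at E13.5 and 91.9 at E15.5, then 130 and 108 at E18.5, with 135 at P14 and then 112 and 89.1 at P56. E13.5 was the lowest library, and the E18.5 change was 0.53 (interval 0.02 to 1.05 before adjustment, limma adjusted p = 0.110). Ctnnd1 (chromosome 2, 84600071 to 84650765, minus strand) had the narrowest range of the 9 genes, from 253 at P14 to 390 in E18.5 replicate 2, with 299 at E13.5 and 305 at E15.5. At E18.5 it changed by 0.21 (interval -0.25 to 0.67, limma adjusted p = 0.448).

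Grhl2 (chromosome 15, 37233036 to 37363569, plus strand) stood at 75.1 at E13.5 and 114 at E15.5, then 95.5 and 161 at E18.5, with 93.8 at P14 and then 82.0 and 123 at P56. Its E18.5 libraries lay on either side of the E15.5 value, and the log2 change was 0.42 (interval -0.32 to 1.15, limma adjusted p = 0.353). The E18.5 libraries did not overlap the early ones for 8 of 9 members, against 63.0% of all genes.

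edgeR on the recovered reads called the same 5 genes, in the same directions, as limma. With E18.5 replicate 1, E18.5 replicate 2, P56 replicate 1 or P56 replicate 2 left out, limma had 1 residual degree of freedom and called 0 of 12964 genes, with 5, 4, 4 and 4 of the 5 members at an unadjusted p under 0.05, while edgeR called all 5 each time. Without E13.5, limma called Epcam, Esrp2 and Jup, and without E15.5 it called Cdh1, Esrp1, Esrp2 and Jup. Epcam and Esrp1 were not called without robust variance estimates, Cdh1 alone was called with no filter on low values, and 0 genes were called by limma in a fit of the 4 libraries compared (3754 genes, with Epcam, Cdh1, Esrp2 and Jup among them, at an unadjusted p under 0.05).

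**Figure D2:**
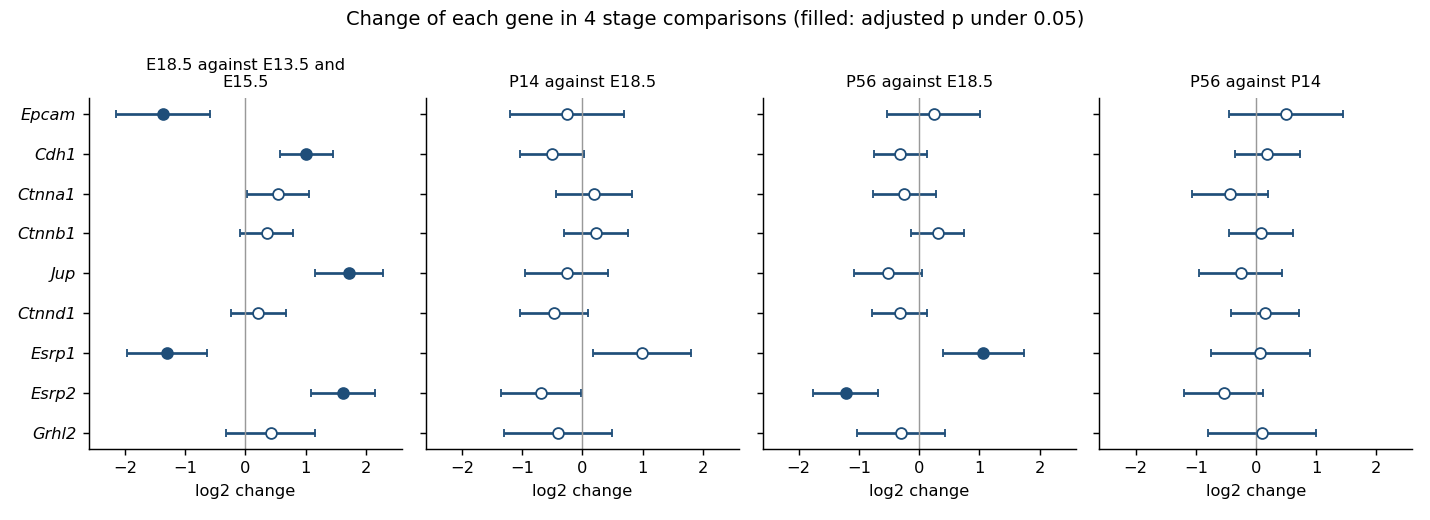
Log2 change (x axis) of each gene (y axis) in 4 comparisons, on log2(value + 1), with 95% intervals from limma. Filled points passed an adjusted p of 0.05. Epcam, Cdh1, Jup, Esrp1 and Esrp2 are filled for E18.5 against the early stages, and Esrp1 and Esrp2, in the opposite directions, for P56 against E18.5.

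Upstream sequence is shown for Epcam and Jup, the members of this set that fell and rose and for which a promoter was at hand. The RefSeq promoter table (GRCm38.p6) matched 4 of the 9 members. Promoters of Cdh1, Ctnna1, Esrp1, Esrp2 and Grhl2 were not analysed here. The 250 bases before the transcription start are printed in the direction of transcription. Capitals mark the E-box CAGGTG or its reverse complement CACCTG, bound by Snail and Zeb repressors, and the GC box GGGCGG or its reverse complement CCGCCC. The marked motifs do not overlap.
Epcam, chr17:87635729-87635978, plus strand: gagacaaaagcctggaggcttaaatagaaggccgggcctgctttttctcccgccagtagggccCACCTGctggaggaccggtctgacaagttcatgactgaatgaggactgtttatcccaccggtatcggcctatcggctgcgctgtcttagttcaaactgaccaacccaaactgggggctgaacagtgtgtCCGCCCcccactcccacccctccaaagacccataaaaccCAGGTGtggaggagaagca
Jup, chr11:100397791-100398040, minus strand: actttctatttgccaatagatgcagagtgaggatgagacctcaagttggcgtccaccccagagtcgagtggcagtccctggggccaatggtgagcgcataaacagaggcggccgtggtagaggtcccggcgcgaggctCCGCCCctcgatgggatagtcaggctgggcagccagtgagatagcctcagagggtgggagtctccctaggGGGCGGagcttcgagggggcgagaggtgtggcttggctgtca

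The Epcam window holds 2 E-boxes, starting 187 and 19 bases before the start site, and 1 GC box 58 bases before it. The Jup window holds no E-box and 2 GC boxes, 112 and 42 bases before the start. Over the 32851 promoters of the table, 17.2% of such windows hold this E-box on either strand and 32.7% hold a GC box. The grainyhead motif AACCGGTT, its own reverse complement, is in 0.116% of windows, and the TCF/LEF motif CTTTGAT or ATCAAAG in 3.21%. Neither exact sequence was found in the windows of Epcam, Jup, Ctnnb1 or Ctnnd1. Variants of the motifs were not searched for, and motifs this rare would be absent from most windows, so nothing is read from their absence. Ctnnb1 has 2 promoters in the table, whose windows overlap, with 3 GC boxes in the first, of which 2 also lie in the second, and Ctnnd1 has 2 with none. These matches describe letters in a window and not sites in use.

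Cells after birth were then compared with those of E18.5, the last fetal stage. At P56, Esrp2 fell and Esrp1 rose, the reverse of their late fetal changes. Esrp2 averaged 295 ± 4.07 at P56 and 705 ± 201 at E18.5 (SD, n = 2 each), 2.39-fold lower (log2 change -1.22, SE 0.229, limma adjusted p = 0.0137). Esrp1 averaged 156 ± 11.2 at P56 and 77.0 ± 30.5 at E18.5 (SD, n = 2 each), 2.03-fold higher (log2 change 1.07, SE 0.286, limma adjusted p = 0.0489). This comparison shares the E18.5 libraries with the one before, so the opposite signs are not separate results. Set beside the early stages, P56 lay within the E13.5 to E15.5 range for Esrp2, at 298 and 292 against 161 and 312. For Esrp1 the P56 libraries, at 164 and 148, lay within and below the early range of 216 and 156.

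The call on Esrp1 lay close to the threshold. Over the 12 alternatives to the main fit that kept all the libraries of the stages compared, its adjusted p ran from 0.0220 to 0.334. Of these 12, 4 called Esrp1, while Esrp2 had 0.0000102 to 0.195 and was called in 9. Without E18.5 replicate 2 the log2 change of Esrp1 was 0.65 and that of Esrp2 -0.93. edgeR called Esrp2 with each of the 4 replicated libraries left out, and Esrp1 only without E18.5 replicate 1. Its adjusted p for Esrp1 was 0.155 without E18.5 replicate 2, 0.182 without P56 replicate 1 and 0.0897 without P56 replicate 2. In limma the same omissions left 0 of 12964 genes called.

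None of the other 7 members was called in this comparison, so that 2 of 9 were called where 14.2% of all genes were, 8.07% higher and 6.15% lower. Jup averaged 145 ± 9.62 at P56 and 211 ± 58.7 at E18.5 (log2 change -0.51, interval -1.08 to 0.05, limma adjusted p = 0.212), and edgeR called it in 1 of 4 omissions, that of E18.5 replicate 1 (log2 change -0.86, edgeR adjusted p = 0.00886). With E18.5 replicate 2, P56 replicate 1 or P56 replicate 2 left out, its edgeR adjusted p was 0.522, 0.365 and 0.255. Cdh1 averaged 217 ± 15.8 and 270 ± 21.7 (log2 change -0.31, interval -0.75 to 0.12). Its P56 libraries were both below the E18.5 ones and both above every early library. Ctnnb1 averaged 3854 ± 739 and 3090 ± 187 (log2 change 0.31, interval -0.13 to 0.74), and Ctnnd1 280 ± 26.0 and 352 ± 53.6 (-0.32, interval -0.78 to 0.14). Epcam at 85.1 ± 34.2 and 70.4 ± 20.7, Ctnna1 at 100.3 ± 15.9 and 119 ± 15.6, and Grhl2 at 103 ± 29.3 and 128 ± 46.0 overlapped between the stages. Libraries did not overlap for 6 of 9 members, against 56.6% of genes.

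P14 was a single library, assumed in the fit to vary like the replicated stages. No member was called against E18.5, by limma, edgeR or DESeq2, where limma called 3.11% of genes. At an unadjusted p under 0.05, limma and DESeq2 each had Esrp1 and Esrp2, and edgeR had these and Cdh1. Esrp1 was at 148 at P14 against 77.0 at E18.5 (log2 change 0.99, interval 0.17 to 1.81, limma adjusted p = 0.190) and Esrp2 at 428 against 705 (-0.69, interval -1.34 to -0.03, both before adjustment). With E18.5 replicate 1 left out, which leaves 1 library against 1 and a spread taken from P56 alone, edgeR called both (adjusted p = 0.00132 and 0.00613). With E18.5 replicate 2 left out instead it called neither (log2 change 0.51 and -0.47, edgeR adjusted p = 0.397 and 0.393), nor with either P56 library left out (edgeR adjusted p from 0.183 to 0.241). Between P56 and P14 no member was called either, where limma called 0.818% of genes. No member reached an unadjusted p under 0.05 there with limma, edgeR or DESeq2. On the fitted log2 scale the largest difference was in Esrp2, at 295 ± 4.07 at P56 (SD, n = 2) against 428 at P14 (log2 change -0.53, interval -1.19 to 0.12).

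Across all 5 stages together, limma's F test called 3 of 9 members, where 30.3% of genes were called. They were Jup (adjusted p = 0.00768), Esrp2 (0.00823) and Cdh1 (0.0238), with stage means that spanned 2.23, 2.10 and 1.37 on the log2 scale. Epcam (span 1.87, adjusted p = 0.0515) and Esrp1 (1.53, adjusted p = 0.0524) missed the threshold in limma and passed it in edgeR and DESeq2. Ctnna1 spanned 0.89, Ctnnb1 0.77, Grhl2 0.71 and Ctnnd1 0.47.

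E15.5 and E13.5 have 1 library each, so their difference has no replicate check. Jup was the 1 member past 2-fold, at 89.7 at E15.5 against 43.2 at E13.5 (ratio 2.07, counting interval 1.71 to 2.52), where 21.6% of genes lay past 2-fold and 13.4% did so upward. Esrp2 had a ratio of 1.94 (1.75 to 2.15), Cdh1 1.65 (1.45 to 1.89), Grhl2 1.51 (1.29 to 1.77), Epcam 1.40 (1.25 to 1.57), Ctnna1 1.27 (1.07 to 1.51) and Ctnnb1 1.16 (1.13 to 1.20). Only Esrp1 was lower, at 0.724 (0.645 to 0.813), and Ctnnd1 had a ratio of 1.02 whose interval held 1 (0.935 to 1.11). These intervals cover counting error in these libraries and do not compare the stages.

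Pairs of genes were also read against each other within a library, which removes the scale of the library. Of the reads of the Esrp paralogs, Esrp2 took 42.7% at E13.5 (95% exact binomial interval 40.2 to 45.1%), 66.6% at E15.5 (64.0 to 69.2%) and 85.1% (83.3 to 86.7%) and 93.9% (92.8 to 94.8%) at E18.5. It took 74.3% at P14 (72.4 to 76.2%) and 64.5% (62.1 to 66.9%) and 66.4% (63.8 to 68.9%) at P56. The share was lowest at E13.5 and highest in the E18.5 libraries, and both P56 shares lay just below that of E15.5. The intervals cover counting error only and do not compare stages, since those of the E18.5 libraries did not overlap each other. A tag does not measure both genes equally, so the change of a share between libraries can be read and its level cannot.

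As proteins, plakoglobin and beta-catenin compete for the same stretch of the E-cadherin tail. The read share of their genes shifted as well. All these shares use the reads behind the levels above, so they are not separate results. Jup took 1.89% of the reads of the pair at E13.5 (1.63 to 2.18%), 3.32% at E15.5 (2.93 to 3.75%), then 5.43% and 7.27% at E18.5, with 4.56% at P14 and then 3.06% and 4.36% at P56. Again the E18.5 libraries were highest and E13.5 lowest. Cdh1 took 40.6% of the Cdh1 and Epcam reads at E13.5 and 44.6% at E15.5, then 75.0% and 83.7% at E18.5, with 76.8% at P14 and then 65.3% and 78.9% at P56, so that every library from E18.5 on was above the early ones. Ctnnd1 took 80.6% of the reads of Ctnnd1 and Ctnna1 at E13.5 and 76.9% at E15.5, then 70.8% and 78.4% at E18.5, with 65.3% at P14 and then 72.8% and 74.6% at P56, with E18.5 on either side of E15.5.

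**Figure D3:**
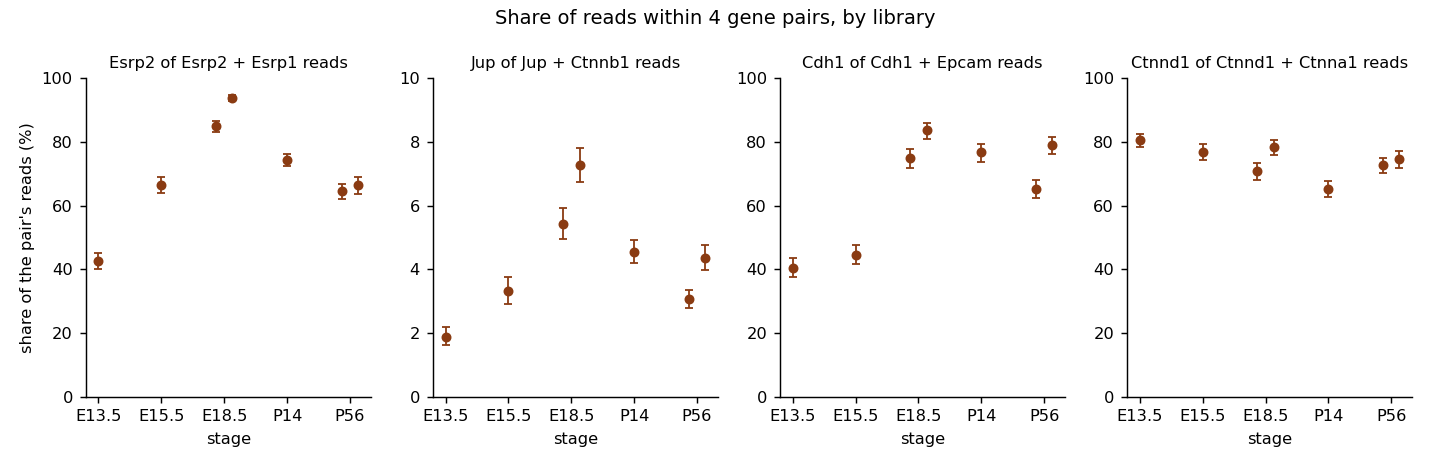
Share of the reads of a gene pair taken by the first gene (y axis, percent; 0 to 10 for Jup, 0 to 100 for the others) by stage (x axis). Points are libraries with 95% exact binomial intervals. The Esrp2 share runs from 42.7% at E13.5 to 93.9% in an E18.5 library and lies at 64.5% and 66.4% at P56.

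Stage order differed between members, and few neighbouring stages stood apart by more than the wider of the gaps between replicates. In Cdh1 the order from low to high was E13.5, E15.5, P14, P56, E18.5, and each step but that from E15.5 to P14 was beyond the replicate gap of 0.16 (log2). In Jup it was E13.5, E15.5, P56, P14, E18.5, with only the steps from E13.5 to E15.5 and on to P56 beyond the gap of 0.57. In Esrp2 it was E13.5, P56, E15.5, P14, E18.5, with the first and last steps beyond 0.59. In Esrp1 it was E18.5, P14, P56, E15.5, E13.5, with only the first step beyond 0.82. In Epcam it was P14, E18.5, P56, E13.5, E15.5, with only the step from P56 to E13.5 beyond 0.83. In Ctnna1 only the step from E13.5 to E15.5 exceeded the gap, and in Ctnnb1, Ctnnd1 and Grhl2 no step did.

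As a description over the 7 libraries, which include pairs from the same stage, log2 values of Cdh1 and Jup followed each other most closely (Pearson r = 0.954), then Esrp2 and Jup (0.891) and Cdh1 and Esrp2 (0.871). Esrp1 ran opposite to Esrp2 (r = -0.942), Cdh1 (-0.810) and Jup (-0.786), and Epcam opposite to Jup (-0.783). Among 2451 well-measured genes, the members included, those most like Cdh1 over the 7 libraries were Zfp36, which encodes an mRNA decay factor (r = 0.988), Gadd45g, a stress-response gene (0.988), and Spint1, a membrane protease inhibitor gene (0.985). Most like Esrp2 were Slc44a2, which encodes a choline transporter-like protein (0.988), Tns3, a tensin gene (0.982), and Bsg, which encodes basigin (0.98). Most like Jup were Rgl2 (0.993), Ltbp3, which encodes a binding protein of latent TGF-beta (0.988), and Mllt6 (0.988).

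Other genes of junctions and epithelial identity were examined in 10 lists. They hold 135 gene symbols besides the members, some of them an older and a newer symbol of the same gene. Of these symbols, 125 were listed in the libraries and 110 were tested. At E18.5 against the early stages 37 of these rose and 19 fell, with a median log2 change of 0.21, where 15.8% of all genes rose, 13.4% fell and the median was 0.03. At P56 against E18.5, 11 rose and 20 fell, with a median of 0.00, where 8.07% of all genes rose, 6.15% fell and the median was 0.06. The counts of each list below stand beside these shares, and the lists were not tested against each other or against all genes.

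Desmosome genes were mostly higher at E18.5. Of 7 tested, 6 rose and 1 fell, with a median log2 change of 1.54. Ppl, which encodes the plaque protein periplakin, averaged 138 ± 2.92 at E18.5 (SD, n = 2) against 15.8 at E13.5 and 19.7 at E15.5 (log2 change 2.90, limma adjusted p = 0.000209). Dsp, which encodes desmoplakin, rose 1.69-fold, Perp 3.42-fold and Pkp3, a plakophilin gene, 2.53-fold. The gene that fell was Dsg2, a desmosomal cadherin, named after its values were seen, with 1 to 17 reads per library. At P56 against E18.5, Dsp fell 2.24-fold and Evpl, the envoplakin gene, named on the same terms, fell 5.16-fold, while none rose.

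Adherens junction genes split. Of 19 tested, 6 rose and 3 fell at E18.5, with a median of 0.03. Cdh3, which encodes P-cadherin, averaged 3.23 ± 1.30 at E18.5 (SD, n = 2) against 57.0 at E13.5 and 20.8 at E15.5 (log2 change -3.11, limma adjusted p = 0.00250). Pkp4, a p120-related catenin gene, fell 3.24-fold and Pvr, a nectin-like adhesion gene, rose 1.80-fold. At P56 against E18.5, 3 rose and 3 fell. Ajuba, which encodes a LIM-domain protein of junctions, averaged 8.54 ± 2.0 at P56 and 112 ± 11.7 at E18.5 (SD, n = 2 each), 13.1-fold lower (limma adjusted p = 0.000249).

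Genes on the list of Epcam partners went in part the other way from Epcam at E18.5. Of 11 tested, 6 rose and 1, Fhl2, fell (median 0.95). Spint2 (log2 change -1.01, limma adjusted p = 0.0519) and Cldn7 (-0.15) were not called. Fhl2, Spint2 and Cldn7 were named after their values were seen. The tetraspanin gene Cd9 rose 6.11-fold and Tspan8 3.49-fold, and Spint1, which encodes a membrane protease inhibitor, rose 2.08-fold. At P56 against E18.5, 4 fell and 2 rose. Cd9 fell 2.33-fold (limma adjusted p = 0.0169) and Tspan8 3.24-fold (limma adjusted p = 0.00465).

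Among 12 splicing regulators tested, 3 rose and 5 fell at E18.5 (median -0.54). Qk, which encodes the RNA-binding protein quaking, averaged 1125 ± 101 at E18.5 (SD, n = 2) against 98.1 at E13.5 and 227 at E15.5 (log2 change 2.90, limma adjusted p = 7.77e-05). It averaged 149 ± 10.2 at P56, 7.55-fold lower than at E18.5 (limma adjusted p = 0.000151), and was the only gene of this list called there. Like Esrp2, it was highest in the E18.5 libraries. Rbm47, an epithelial splicing regulator, rose 2.12-fold at E18.5 and Rbms3 3.88-fold, and Ptbp2, a polypyrimidine tract-binding protein gene best known from neurons, fell 4.58-fold.

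Epithelial transcription factor genes other than Grhl2 rose in part. Of 11 tested, 5 rose and 1 fell at E18.5 (median 0.58). Tfcp2l1, a grainyhead-related factor, averaged 80.1 ± 12.5 at E18.5 (SD, n = 2) against 0.709 at E13.5 and 8.61 at E15.5 (log2 change 4.31, limma adjusted p = 5.15e-05), and rose a further 2.14-fold at P56 (limma adjusted p = 0.0263). Tfcp2l1 had 3 to 645 reads per library. Elf5 rose 2.82-fold, Ovol1 4.02-fold and Klf5 3.36-fold at E18.5. At P56 against E18.5, 2 rose and Elf5 fell 2.24-fold.

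Of 11 epithelial genes listed as bound by Grhl2, 8 rose and 2 fell at E18.5 (median 0.99), and 5 fell and none rose at P56 against E18.5 (median -0.79). Grhl2 itself was called in neither comparison. Rab25, a GTPase gene of membrane recycling, averaged 71.9 ± 7.83 at E18.5 (SD, n = 2) against 13.2 at E13.5 and 25.8 at E15.5 (limma adjusted p = 0.00253), and fell 3.54-fold at P56 (limma adjusted p = 0.00624). Cldn4, a claudin gene, rose 3.12-fold at E18.5 and Lama3, a laminin chain gene, 1.88-fold. At P56 Lama3 fell 9.84-fold and Cldn4 58.7-fold relative to E18.5. The Cldn4 ratio rests on few reads at P56, where it stood at 2.85 and 1.94 units, with 6 reads in its lowest library. Ovol1, an epithelial factor gene, is in this list too.

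Genes of epithelial to mesenchymal transition and E-cadherin repression had few reads. Of 10 listed, 8 were in the files and 5 were tested. At E18.5 Tcf3 fell and none rose, and at P56 against E18.5 Snai2 and Zeb2 fell (all 3 named after their values were seen). Zeb2 had 3 to 60 reads per library, Snai2 0 to 68 and Tcf3 2 to 67.

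**Figure D4:**
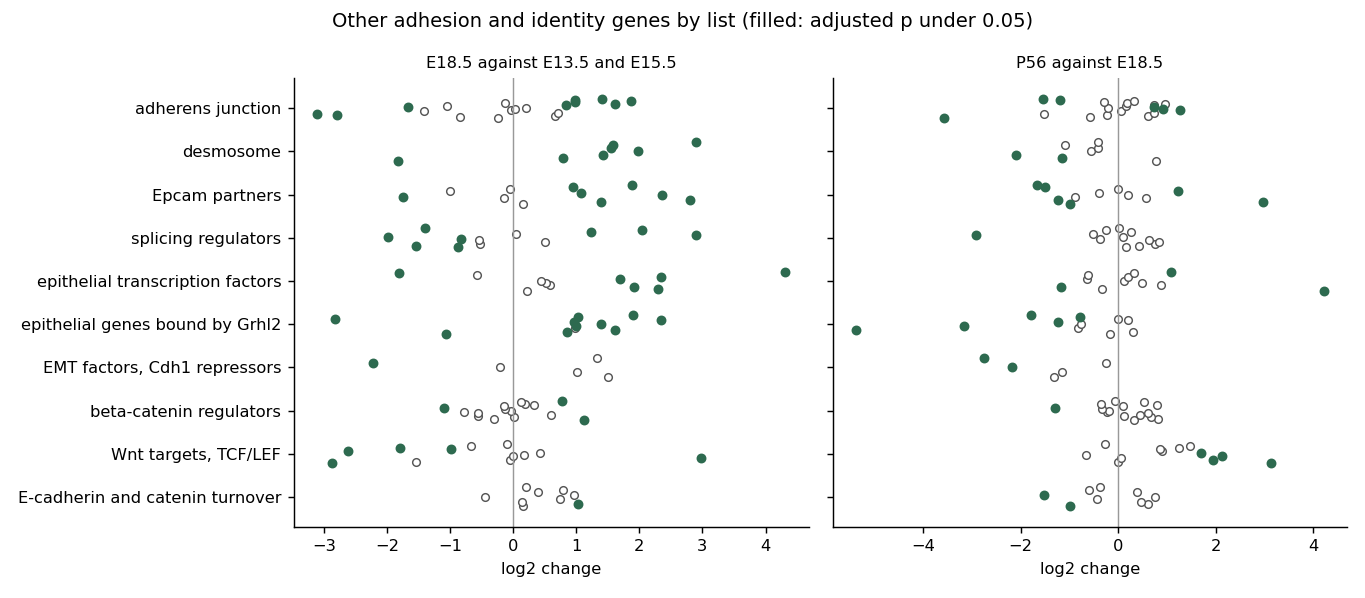
Log2 change (x axis) of each tested gene of the 10 lists (y axis), without the 9 members, on log2(value + 1). Filled points passed an adjusted p of 0.05 in limma. Of the 7 desmosome genes 6 are filled to the right of 0 for E18.5 against the early stages, and the genes listed as bound by Grhl2 have 5 filled points for P56 against E18.5, all to the left of 0.

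Regulators and targets of beta-catenin were listed separately. Of 15 genes of the destruction complex and related regulators, 2 rose and 1 fell at E18.5 (median -0.04). Apc, the scaffold of that complex, averaged 203 ± 14.4 at E18.5 (SD, n = 2) against 87.4 at E13.5 and 96.9 at E15.5 (limma adjusted p = 0.00426). Ctnnbip1, which encodes an inhibitor of beta-catenin binding to TCF, fell 2.13-fold at E18.5 and a further 2.54-fold at P56. Gsk3b, the kinase gene of the complex, was called across the 5 stages (adjusted p = 0.0465) and in neither of these comparisons.

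Of 12 Wnt target and TCF/LEF genes tested, 1 rose and 4 fell at E18.5 (median -0.39). The gene that rose was Nkd1. Those that fell were Ccnd1 and the TCF factor genes Tcf7, Tcf7l1 and Tcf7l2 (the TCF genes named after their values were seen). Tcf7 had 0 to 48 reads per library and Tcf7l2 2 to 31. At P56 against E18.5, 4 rose and none fell (median 1.08). Nkd1, a Wnt feedback inhibitor gene, averaged 130 ± 31.9 at E18.5 (SD, n = 2) against 11.1 at E13.5 and 21.2 at E15.5 (limma adjusted p = 0.000267). Ccnd1, the cyclin D1 gene, averaged 6.67 ± 0.909 at E18.5 against 98.5 at E13.5 and 30.5 at E15.5 (limma adjusted p = 0.000426). At P56 Ccnd1 averaged 66.5 ± 10.8, 9.97-fold higher than at E18.5 (limma adjusted p = 0.000554), and Sp5, a Wnt-induced factor gene, rose 3.31-fold. In the list of E-cadherin and catenin turnover, which includes Ctnnd1, 1 of 10 tested genes rose at E18.5, the small GTPase gene Arf6 (2.02-fold), and 2 fell at P56.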

How the data were processed

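The submitters' processing notes list mm10, R 3.4.0 and Bowtie2 2.2.5. The tag counter, its annotation and its scaling are not given in the sources used here. As deposited, each value is a scaled signal, tag counts that the authors divided by 1 factor per library, since 100% of values in each library were whole multiples of 1 read within 0.01 reads. Genes passing edgeR's filterByExpr by stage on the recovered reads (12964 of 21121) went into a robust limma-trend fit of log2(value + 1), with a coefficient per stage over 7 libraries, 2 residual degrees of freedom. A pseudocount of 1 understates changes of low genes. The planned design named limma for scaled values, with edgeR and DESeq2 as alternatives. Counting intervals are exact Poisson or binomial at 95%. The members and lists were chosen with earlier results of these data known. Up to 4 genes per list were named, those with the smallest p in the test across stages and at least 50 units in a library, and 1 gene so chosen is not reported here. The 3 genes most like each member past that test were named by Pearson correlation among genes averaging at least 50 units. Other genes named are marked as chosen after their values were seen. Software was Python 3.11.15 with SciPy 1.17.1 and matplotlib 3.10.9, and R 4.3.3 with DESeq2 1.42.0, edgeR 4.0.16 and limma 3.58.1.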

Additional observations from a re-analysis of the deposited data

How the results depend on the processing

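With limma, leaving out 1 replicated library gave 0 genes and 0 members called in every comparison (1 residual degree of freedom). For E18.5 against the early stages, leaving out E13.5 gave 1420 genes and 3 members and leaving out E15.5 gave 3772 and 4, so the counts ran from 0 to 3772 and from 0 to 4. edgeR with a library left out, an alternative chosen after seeing the data, called 3564 to 4561 genes and 5 to 6 members there, 3659 to 6902 and 4 to 7 across all stages, 1171 to 2797 and 1 to 3 for P56 against E18.5, 564 to 1614 and 0 to 2 for P14 against E18.5, and 128 to 744 and 0 for P56 against P14. Scaling by the library total moved the median of all genes for E18.5 against the early stages to -0.11, against 0.03 in the deposited scale, and called the same 5 members.

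Replicate numbers are shared by E18.5 and P56 only (correlation of their deviations over 6807 genes -0.04), and nothing says that they pair the samples. With a replicate block, 1561 genes and 1 member were called across stages, 1893 and 3 for E18.5 against the early stages, 894 and 0 for P56 against E18.5, 16 for P14 against E18.5 and 0 for P56 against P14. Without robust variance estimates the genes were 2550 across stages, 1125 for P56 against E18.5, 6 for P14 against E18.5 and 0 for P56 against P14, and the members 3 for E18.5 against the early stages and 0 for P56 against E18.5. With no filter on low values, members fell to 0 across stages, 1 for E18.5 against the early stages and 0 for P56 against E18.5, and genes were 679 for P56 against E18.5, 1051 for P14 against E18.5 and 800 for P56 against P14. A minimum mean of 10 gave 5 members across stages and 193 genes for P56 against P14. edgeR on the recovered reads gave 4752 genes and 5 members across stages, 3994 genes for E18.5 against the early stages, 2097 for P56 against E18.5, 686 for P14 against E18.5 and 267 for P56 against P14, and DESeq2 gave 5 members across stages, 2412 genes for E18.5 against the early stages and 196 for P56 against P14. With scaling by the library total, TMM scaling, DESeq2 size factors, or a pseudocount of 0.25 or 5, 1 member (Esrp2) remained for P56 against E18.5, and a pseudocount of 0.25 gave 264 genes for P14 against E18.5. With only the stages compared in the fit, 0 genes and 0 members were called for E18.5 against the early stages, and 0 genes for both comparisons with P14. Beyond fewer samples or degrees of freedom, the cause was not tested.

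Uncalled members changed sign in 15 cases. Leaving out 1 library, in limma or edgeR, gave these ranges of the log2 change. For P14 against E18.5 they were -0.64 to 0.043 for Epcam (positive without E18.5 replicate 1), -0.62 to 0.025 for Jup (positive without E18.5 replicate 2) and -0.023 to 0.32 for Ctnna1 (negative in edgeR, E18.5 replicate 2 left out). For P56 against E18.5 they were -0.29 to 0.66 for Epcam (negative with E18.5 replicate 2 or P56 replicate 1 left out) and -0.71 to 0.074 for Grhl2 (positive with E18.5 replicate 2 left out). For P56 against P14 they were -0.19 to 0.39 for Grhl2 (negative with P56 replicate 2 left out, and -0.23 with the replicate block), -0.12 to 0.28 for Ctnnb1 (negative with P56 replicate 1 left out) and -0.0015 to 0.16 for Esrp1 (negative in edgeR, P56 replicate 1 left out). Of 909 member results under alternatives, 795 kept direction and side of the threshold, 76 lost and 23 gained a call. Only results called in the main fit could lose a call. These were 3 members across stages, 5 for E18.5 against the early stages and 2 for P56 against E18.5. Most of the 795 were uncalled in the main fit and stayed so.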
